A study of Mus musculus with 95 samples.

Results

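The expression of 9 striatum-enriched genes that act in or beside cAMP signalling was followed in the cerebral cortex of mice with CAG repeats of different length in Htt, the gene whose long repeats cause Huntington's disease. The genes Gnal, Gng7, Adcy5, Rgs9, Pde10a, Pde1b, Ppp1r1b, Rasd2 and Scn4b were chosen by name, with earlier results of these data known. All 9 were found among the 39179 genes of the deposited tables, and all 9 passed the filter on low counts at both ages. The mice were C57BL/6 and carried 1 Htt allele (heterozygous, Het) with a knocked-in repeat of 20, 50, 92 or 140 CAG units (lines Q20, Q50, Q92 and Q140). The controls were wild-type mice housed with Q20 mice (WTwithQ20) or with Q50 mice (WTwithQ50), described by the submitters as littermates. Q92 and Q140 mice were housed with mice of their own line. Each of the 6 groups had 8 libraries at 6 months and 8 at 10 months, 4 from males and 4 from females, except Q140 at 10 months with 3 males and 4 females. The comparison asked how the genes changed with repeat length and age. Q20 was compared with WTwithQ20 and Q50 with WTwithQ50, while Q92 and Q140 were compared with the mean of WTwithQ20 and WTwithQ50. Line, cohort and housing cannot be told apart for Q92 and Q140, and the labels do not say whether libraries came from separate or pooled animals. The p-values therefore measure the spread between these libraries.

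These genes serve the signalling of striatal projection neurons, the cells that receive dopamine and adenosine and degenerate early in Huntington's disease. Some dopamine and adenosine receptors act through the olfactory-type G protein on adenylyl cyclase, cAMP activates protein kinase A, and phosphodiesterases break down cAMP. RGS proteins speed the shut-off of G proteins. The genes are far more active in striatum than in cerebral cortex, where most neurons use other family members.

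The 95 libraries held 30334161 to 41082838 estimated counts (median 34123230), and 353 counts were the fewest for any of the 9 genes in any library (Rgs9). Markers of cortical excitatory neurons were high everywhere, with group means of 6.28 to 6.55 on the log2 scale of CPM, counts relative to library size. Htt itself, the targeted gene, averaged 194 ± 11.6 CPM in Q140 and 227 ± 39.9 CPM in Q92 libraries at 6 months, against 216 ± 7.49 CPM in WTwithQ20 libraries. A knock-in changes the repeat, so this level does not check the labels. Abhd1, chosen after its values were seen, separated knock-in from wild-type libraries: it lay at 3.79 to 6.73 CPM in 61 of the 63 knock-in libraries, against 1.01 to 2.23 CPM in the 32 wild-type libraries. The libraries labelled Q20 male replicate 4 at 10 months and Q50 female replicate 1 at 6 months lay in the wild-type range, at 1.26 and 1.85 CPM. Mitochondrial genes took 9.08 to 14.7% of counts, and over 13% in Q50 female replicate 4 and Q92 male replicate 3 at 6 months. In RNA from whole tissue, fewer cells of a type, less RNA per cell and a different share of neighbouring tissue cannot be told apart. Across libraries the choroid plexus marker Ttr had 207 to 84925 counts. Lhx8, a marker of forebrain cholinergic neurons, had 0 to 132 counts. How much tissue from outside the cortex each library held was not tested.

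Promoter windows of some of the genes that differed most at 6 months are shown because the 9 genes moved together. Ppp1r1b was also among those that differed most but has no window. Gnal was left out of the search by choice, and the RefSeq promoters used (GRCm38.p6) held no start for Ppp1r1b. The other 7 of the 9 genes had 11 starts in all, each taken as the 250 bases before the start. Ppp1r1b and Gnal are named only. The windows of Rgs9, Gng7 and Pde10a are printed 5′ to 3′, with matches to searched motifs in capitals.
Rgs9, start 1, chr11:109298182-109298431, - strand: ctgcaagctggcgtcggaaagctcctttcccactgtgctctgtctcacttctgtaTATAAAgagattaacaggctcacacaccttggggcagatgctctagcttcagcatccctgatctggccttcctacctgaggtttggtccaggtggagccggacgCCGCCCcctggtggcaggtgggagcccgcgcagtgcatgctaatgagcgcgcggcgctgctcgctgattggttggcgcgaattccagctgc
Gng7, start 1, chr10:81014926-81015175, - strand: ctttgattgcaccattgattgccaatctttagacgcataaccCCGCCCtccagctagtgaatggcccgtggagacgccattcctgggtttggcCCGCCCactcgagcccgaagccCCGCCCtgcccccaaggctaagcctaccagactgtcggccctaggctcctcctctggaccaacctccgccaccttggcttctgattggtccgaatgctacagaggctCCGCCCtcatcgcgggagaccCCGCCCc
Gng7, start 2, chr10:81001366-81001615, - strand: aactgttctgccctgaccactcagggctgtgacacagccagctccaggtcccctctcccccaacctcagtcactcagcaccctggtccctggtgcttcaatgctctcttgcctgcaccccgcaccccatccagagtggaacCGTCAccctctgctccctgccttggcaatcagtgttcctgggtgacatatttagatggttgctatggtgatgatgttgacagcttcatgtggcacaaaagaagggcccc
Pde10a, start 1, chr17:8801495-8801744, + strand: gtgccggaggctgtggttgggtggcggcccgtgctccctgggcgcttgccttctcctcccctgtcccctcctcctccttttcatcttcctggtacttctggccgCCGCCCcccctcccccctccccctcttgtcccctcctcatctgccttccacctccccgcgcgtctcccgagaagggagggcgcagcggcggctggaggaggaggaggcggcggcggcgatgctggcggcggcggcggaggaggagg
Pde10a, start 2, chr17:8849735-8849984, + strand: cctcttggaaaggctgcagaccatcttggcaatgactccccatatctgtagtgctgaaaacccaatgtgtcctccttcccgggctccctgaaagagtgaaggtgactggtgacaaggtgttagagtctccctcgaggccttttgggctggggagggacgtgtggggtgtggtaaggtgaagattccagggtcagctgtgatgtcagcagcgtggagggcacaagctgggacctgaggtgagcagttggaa
The motifs searched on both strands were the cAMP response element TGACGTCA, its core TGACG (which lies inside the full element), the GC box GGGCGG and the TATA motif TATAAA. TGACGTCA was in 0 of the 11 windows and in 1.55% of all 32851 promoters of the table. TGACG was in 1 window, the second Gng7 start, read from the opposite strand 109 bases before the start, against 17.8% of all promoters. GGGCGG was in 5 windows, 1 each of Rgs9, Gng7, Pde10a, Pde1b and Adcy5, against 32.7% of all promoters. The first Gng7 window held it 5 times. TATAAA was in 1 window, that of Rgs9, 195 bases before the start, against 12.4% of all promoters. These matches describe the letters of these windows alone.

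In FPKM, a scale per transcript length on which genes can be compared, Ppp1r1b was the highest of the 9 with a mean of 69.8 ± 25.7 FPKM (SD, n = 95 libraries), followed by Pde1b with 54.7 ± 11.9 FPKM. Rgs9 was the lowest with 14.3 ± 8.57 FPKM and also varied most: its highest library held 10.3 times the FPKM of its lowest. The same ratio was 6.84 for Pde10a, 5.09 for Scn4b and 4.28 for Ppp1r1b, and 2.43 to 3.48 for the other 5 genes. A single library, Q20 male replicate 4 at 10 months, was the highest for all 9 genes. Across the 12 groups of line and age, Q20 or WTwithQ20 at 6 months had the highest mean FPKM for 8 genes, and Q20 at 10 months for Gnal. The lowest group was Q92 at 6 months for Ppp1r1b, Pde1b, Gng7, Adcy5 and Gnal. It was Q140 at 6 months for Pde10a, Rasd2 and Scn4b, and WTwithQ20 at 10 months for Rgs9. Neighbouring groups in these orders differed by more than both their SDs only once, for Scn4b between WTwithQ50 and Q50 at 6 months. The gap between the ends of the order was wide: Rgs9 averaged 24.6 ± 7.74 FPKM in Q20 at 6 months and 6.24 ± 1.51 FPKM in WTwithQ20 at 10 months.

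**Figure D1:**
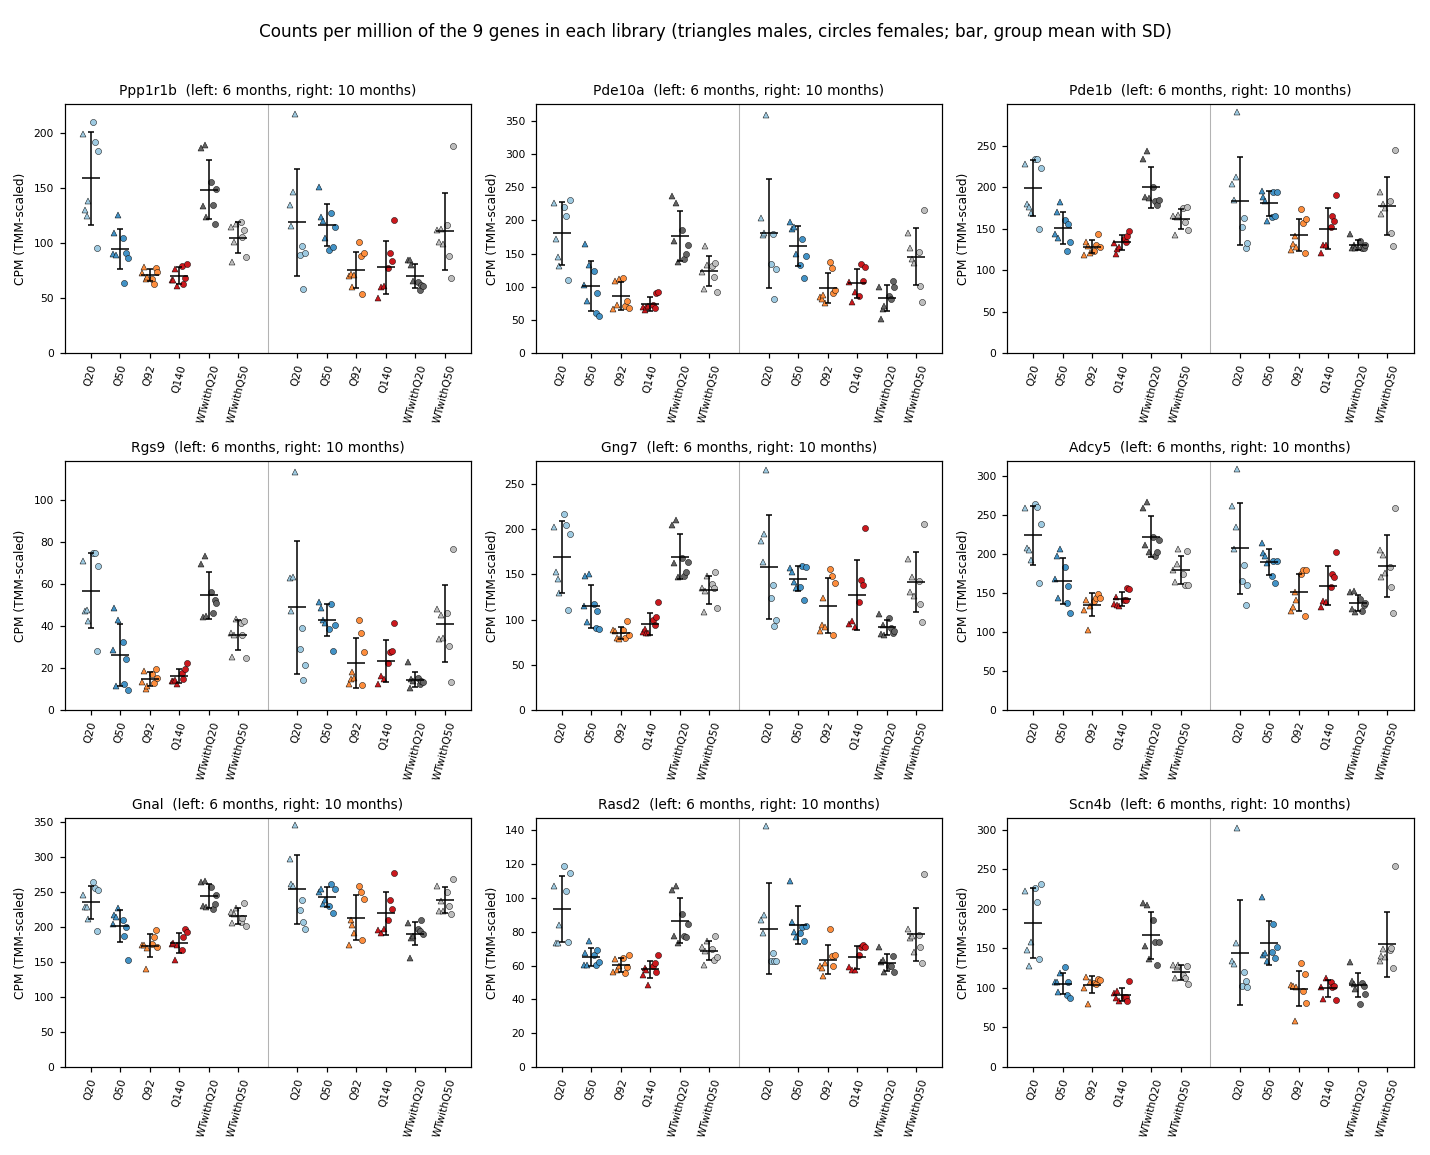
CPM (counts relative to TMM-scaled library size) of each of the 9 genes in every library, by line and housing group, with 6 months left and 10 months right of the grey line in each panel; triangles are males, circles females, and bars give the group mean with its SD. The Q92 and Q140 libraries sit low at 6 months, and at 10 months the WTwithQ20 libraries sit at the same low level (Rgs9 medians 14.4, 14.4 and 13.7 CPM).

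At 6 months all 9 genes were lower in Q92 than in wild-type cortex, and all 9 were lower in Q140. edgeR's quasi-likelihood test with Benjamini-Hochberg adjustment over 17716 genes called 4.53% of all genes lower in Q92 and 2.13% lower in Q140. Both comparisons share the same 16 wild-type libraries. The median log2 fold change of the 9 genes was -0.56 in Q92 and -0.63 in Q140, against 0.0044 and 0.00084 over all genes tested. Every one of the 8 Q92 and 8 Q140 libraries lay below the wild-type mean for each gene. Levels below are in CPM, and differences are log2 fold changes ± SE. Changes were widest in Rgs9 and smallest in Rasd2 and Gnal.

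The G protein and its enzyme came first in the pathway. Gnal lay at 139.6 to 196 CPM (median 174) in Q92 and 152 to 197 CPM (median 176) in Q140 libraries, against 226 to 266 CPM (median 239.5) in WTwithQ20 and 201 to 234 CPM (median 216) in WTwithQ50 libraries. Gnal encodes the alpha subunit of the olfactory-type G protein, and no Q92 or Q140 library reached the lowest wild type. Its log2 fold change was -0.40 ± 0.0549 (adjusted p = 1.78e-06) in Q92 and -0.37 ± 0.0548 (adjusted p = 2.12e-05) in Q140. Gng7 lay at 78.2 to 98.4 CPM (median 85.4) in Q92 and 85.2 to 119.6 CPM (median 91.8) in Q140 libraries, against 147 to 209.7 CPM (median 163) in WTwithQ20 and 108 to 152 CPM (median 135) in WTwithQ50 libraries. Gng7 encodes the gamma subunit of the same G protein: every Q92 library lay below every wild type, while the Q140 range overlapped the WTwithQ50 range. The log2 fold change of Gng7 was -0.81 ± 0.103 (adjusted p = 8.65e-07) in Q92 and -0.65 ± 0.102 (adjusted p = 4.30e-05) in Q140. Adcy5 lay at 103 to 149 CPM (median 141) in Q92 and 134 to 156 CPM (median 141) in Q140 libraries, against 197 to 267 CPM (median 215) in WTwithQ20 and 160.1 to 206 CPM (median 177) in WTwithQ50 libraries. Adcy5 is the main adenylyl cyclase of striatal neurons, and neither line overlapped the wild types. The differences were -0.56 ± 0.0815 (adjusted p = 5.11e-06) in Q92 and -0.48 ± 0.0811 (adjusted p = 0.000128) in Q140. The lowest Q92 values of Gnal and Adcy5 came from male replicate 3, a library with over 13% mitochondrial counts. All 9 genes stayed called in both lines when the libraries over 13% were left out.

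The RGS and phosphodiesterase genes included the one that fell most. Rgs9 lay at 9.86 to 19.6 CPM (median 14.4) in Q92 and 12.6 to 22.4 CPM (median 14.4) in Q140 libraries, against 44.4 to 73.2 CPM (median 51.6) in WTwithQ20 and 24.6 to 43.1 CPM (median 36.4) in WTwithQ50 libraries. Rgs9 encodes an RGS protein that speeds the shut-off of G proteins, and both knock-in ranges lay wholly below the 16 wild types. The log2 fold change was -1.57 ± 0.223 (adjusted p = 4.36e-06) in Q92 and -1.46 ± 0.221 (adjusted p = 3.49e-05) in Q140, which is 33.6% and 36.4% of the wild-type level. Pde10a lay at 66.8 to 113 CPM (median 76.1) in Q92 and 64.3 to 92.0 CPM (median 70.5) in Q140 libraries, against 137 to 236 CPM (median 166) in WTwithQ20 and 92.4 to 162 CPM (median 127) in WTwithQ50 libraries. Pde10a encodes the phosphodiesterase that breaks down cAMP and cGMP in striatal projection neurons. Its Q140 libraries were all below the wild types, and its Q92 libraries overlapped WTwithQ50. The differences were -0.77 ± 0.158 (adjusted p = 0.000965) in Q92 and -0.98 ± 0.160 (adjusted p = 0.000115) in Q140. Pde1b lay at 118 to 143 CPM (median 129) in Q92 and 119.6 to 148 CPM (median 133) in Q140 libraries, against 178 to 243 CPM (median 187) in WTwithQ20 and 142 to 176 CPM (median 164) in WTwithQ50 libraries. Pde1b, a calcium- and calmodulin-dependent phosphodiesterase, overlapped the wild types in both lines by a narrow margin. It differed by -0.49 ± 0.0700 (adjusted p = 4.21e-06) in Q92 and -0.43 ± 0.0698 (adjusted p = 7.45e-05) in Q140.

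Downstream of cAMP, Ppp1r1b was lower with no overlap in either line, by a narrow margin in Q140. Ppp1r1b lay at 62.8 to 77.8 CPM (median 71.1) in Q92 and 60.6 to 81.2 CPM (median 67.0) in Q140 libraries, against 117 to 189 CPM (median 141) in WTwithQ20 and 82.3 to 119 CPM (median 108) in WTwithQ50 libraries. Ppp1r1b encodes DARPP-32, which inhibits protein phosphatase 1 once protein kinase A has phosphorylated it, and no knock-in library of either line reached the wild-type range. The log2 fold change was -0.81 ± 0.113 (adjusted p = 3.26e-06) in Q92 and -0.83 ± 0.113 (adjusted p = 1.07e-05) in Q140. Rasd2 lay at 55.6 to 66.1 CPM (median 59.4) in Q92 and 48.6 to 66.2 CPM (median 57.9) in Q140 libraries, against 73.5 to 107 CPM (median 81.0) in WTwithQ20 and 60.3 to 77.5 CPM (median 69.1) in WTwithQ50 libraries. Rasd2 encodes Rhes, a small GTP-binding protein enriched in striatum, and its ranges overlapped WTwithQ50 in both lines. It differed by -0.36 ± 0.0760 (adjusted p = 0.00123) in Q92 and -0.42 ± 0.0763 (adjusted p = 0.000392) in Q140. Scn4b lay at 79.5 to 114 CPM (median 107) in Q92 and 83.3 to 108 CPM (median 88.1) in Q140 libraries, against 129 to 207 CPM (median 158) in WTwithQ20 and 105 to 129 CPM (median 121) in WTwithQ50 libraries. Scn4b, the beta 4 subunit of voltage-gated sodium channels, overlapped the wild types as well. Its log2 fold change was -0.44 ± 0.0939 (adjusted p = 0.00129) in Q92 and -0.63 ± 0.0948 (adjusted p = 2.81e-05) in Q140. In all, 5 of the 9 genes did not overlap the 16 wild types in Q92, and 5 in Q140, where 0.553% and 0.158% of all genes were lower with no overlap. Ppp1r1b, Rgs9, Adcy5 and Gnal were among the 5 in both lines.

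The size of these differences depended on which wild types were used. Against WTwithQ20 alone, all 9 genes were called lower in both lines, where 4.11% of all genes were in Q92 and 2.46% in Q140. Rgs9 differed by -1.88 ± 0.245 (adjusted p = 6.09e-07) in Q92 and -1.76 ± 0.243 (adjusted p = 3.84e-06) in Q140. Against WTwithQ50 alone, 6 genes were called lower in Q92 and 6 in Q140, where 2.87% and 1.06% of all genes were. Rgs9 differed by -1.27 ± 0.245 (adjusted p = 0.00136) in Q92 and -1.15 ± 0.244 (adjusted p = 0.00764) in Q140. Pde10a, Rasd2 and Scn4b were then not called in Q92, with adjusted p of 0.0932, 0.242 and 0.348. Pde1b, Adcy5 and Rasd2 were not called in Q140, with adjusted p of 0.0534, 0.05002 and 0.149. In the Q140 comparison, 9 genes were called lower among males alone, where 1.14% of all genes were. Among females alone 0 of the 9 were called, where 0.0173% of all genes were called in either direction. Of the 9, 9 had an unadjusted p below 0.05. The share of all genes below that unadjusted threshold is not reported, here or below, so such counts cannot be set against it. The 9 genes moved together, so these counts are not separate results. With 4 females a group, the log2 fold change of Rgs9 in Q140 was -1.21 ± 0.293 (adjusted p = 0.153), and in males it was -1.73 ± 0.300 (adjusted p = 0.00576). Whether the sexes differ in this was not tested. In the Q92 comparison, 8 genes were called lower in males alone and 6 in females alone, where 1.88% and 1.61% of all genes were.

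**Figure D2:**
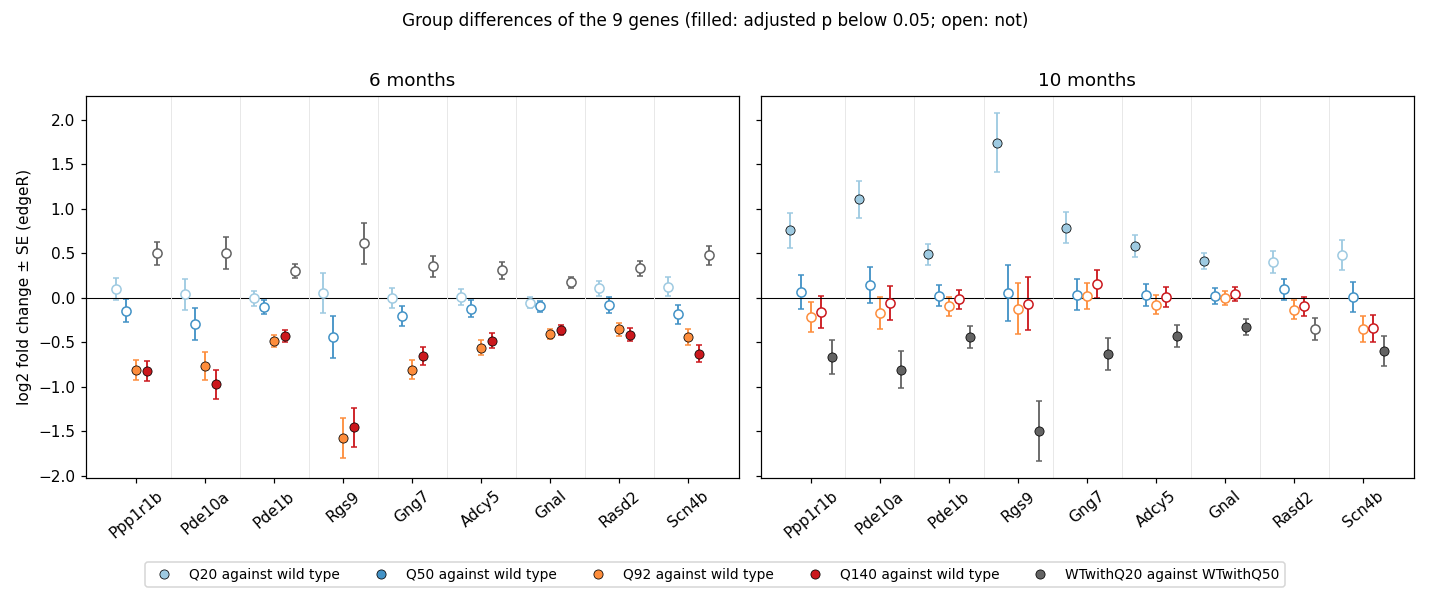
Log2 fold change with its SE (edgeR) for each of the 9 genes in each knock-in line against its wild types and for WTwithQ20 against WTwithQ50, at 6 months (left) and 10 months (right); filled points passed an adjusted p of 0.05. At 6 months the filled points are those of Q92 and Q140, all below 0, and at 10 months they are those of Q20, above 0, and of the wild-type pair, below 0.

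At 6 months no change was detected in the shorter repeats against the wild types housed with them. edgeR called 0 of the 9 genes in Q20 and 0 in Q50, where 0.0169% and 0.0226% of all genes were called, and 0 had an unadjusted p below 0.05 in either line. Rgs9 lay at 28.1 to 74.8 CPM (median 58.0) in Q20 libraries, against 44.4 to 73.2 CPM (median 51.6) in WTwithQ20 libraries, and the ranges overlapped throughout. In Q50 libraries Rgs9 lay at 9.59 to 48.8 CPM (median 26.5), against 24.6 to 43.1 CPM (median 36.4) in WTwithQ50 libraries. The Q50 libraries reached both below and above that range, and the difference was -0.44 ± 0.237 (adjusted p = 0.801). For Ppp1r1b the difference was 0.093 ± 0.124 (adjusted p = 1) in Q20 and -0.14 ± 0.125 (adjusted p = 0.816) in Q50, and for Pde10a it was 0.039 ± 0.175 (adjusted p = 1) and -0.29 ± 0.177 (adjusted p = 0.801). All 9 fitted differences were below 0 in Q50, none past the test. Against both wild-type groups, the reference used for Q92 and Q140, the Q50 values lay further from 0. Scn4b was then called lower in Q50 at -0.43 ± 0.0938 (adjusted p = 0.0383), as were 0.096% of all genes. Of the 9 genes, 9 had an unadjusted p below 0.05 in Q50, but the share of all genes that did is not reported here. Rgs9 differed by -0.75 ± 0.209 (adjusted p = 0.117) and Ppp1r1b by -0.39 ± 0.110 (adjusted p = 0.117) in Q50 against that reference. In Q20 the fitted differences from both wild-type groups were above 0, with an unadjusted p below 0.05 for 4 genes and 0 called, where 0.0226% of all genes were. Scn4b was the nearest in Q20, at 0.36 ± 0.0906 (adjusted p = 0.342). In the linear trend over the 4 knock-in lines, all 9 genes were called lower with longer repeats, where 1.92% of all genes were. Each line is also a cohort of its own, with its own housing. Repeat length, cohort and housing cannot be told apart in this trend. Per 100 repeats, Rgs9 changed by -1.48 ± 0.194 (adjusted p = 2.31e-06), Pde10a by -0.95 ± 0.142 (adjusted p = 1.65e-05) and Ppp1r1b by -0.93 ± 0.1001 (adjusted p = 5.43e-08). The smallest slope was that of Gnal, at -0.33 ± 0.0491 (adjusted p = 1.02e-05). The order was not a steady one: Q92 and Q140 had Rgs9 medians of 14.4 CPM each, against 26.5 CPM in Q50 and 58.0 CPM in Q20.

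The wild-type mice, of 1 genotype but different housing, were compared as well. At 6 months all 9 genes were higher in the fit in WTwithQ20 than in WTwithQ50, with log2 differences of 0.17 for Gnal to 0.61 for Rgs9, but 0 passed the adjusted threshold, which 0.0903% of all genes did. Scn4b came nearest, at 0.47 ± 0.106 (adjusted p = 0.0514). Each of the 9 had an unadjusted p below 0.05, but the share of all genes that did is not reported here. DESeq2's Wald test called 2 of the 9. Pde1b and Rgs9 did not overlap between the wild-type groups, which held for 0.079% of all genes in that direction. Rgs9 lay at 44.4 to 73.2 CPM (median 51.6) in WTwithQ20 libraries, against 24.6 to 43.1 CPM (median 36.4) in WTwithQ50 libraries.

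At 10 months the wild-type groups stood the other way round. Among the 9 genes, 8 were lower in WTwithQ20 than in WTwithQ50, where 3.63% of all genes were called lower, and Rasd2 was not called, at -0.35 ± 0.122 (adjusted p = 0.0683). Rgs9 lay at 10.6 to 22.9 CPM (median 13.7) in WTwithQ20 libraries, against 13.4 to 76.7 CPM (median 39.8) in WTwithQ50 libraries. Among WTwithQ50 libraries, 1 entered the WTwithQ20 range, and the difference was -1.50 ± 0.332 (adjusted p = 0.00589). Pde10a lay at 50.9 to 109 CPM (median 83.7) in WTwithQ20 libraries, against 76.9 to 216 CPM (median 147) in WTwithQ50 libraries, with overlapping ranges. Pde10a differed by -0.81 ± 0.207 (adjusted p = 0.0146) and Ppp1r1b by -0.67 ± 0.193 (adjusted p = 0.0285). Gnal lay at 155 to 209 CPM (median 192) in WTwithQ20 libraries, against 219 to 268 CPM (median 233) in WTwithQ50 libraries. Gnal alone had no overlap, as had 0.494% of all genes in this direction, and it differed by -0.33 ± 0.0877 (adjusted p = 0.0180). Gng7 changed by -0.63 ± 0.174 (adjusted p = 0.0222), Scn4b by -0.60 ± 0.169 (adjusted p = 0.0257), Pde1b by -0.44 ± 0.120 (adjusted p = 0.0201) and Adcy5 by -0.43 ± 0.125 (adjusted p = 0.0304). Without WTwithQ50 female replicate 4, the highest WTwithQ50 library for Rgs9, 3 genes were called in place of 8. Without WTwithQ50 male replicate 1, 5 were called. Rgs9, Pde10a and Gnal kept their call whichever single library was left out.

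Between the ages, which were separate cohorts, all 9 genes were lower at 10 than at 6 months in WTwithQ20 mice, where 5.36% of 18187 genes were called lower. Rgs9 differed by -1.91 ± 0.293 (adjusted p = 3.63e-06), Ppp1r1b by -1.09 ± 0.165 (adjusted p = 3.13e-06), Pde10a by -1.08 ± 0.195 (adjusted p = 7.16e-05) and Gng7 by -0.89 ± 0.149 (adjusted p = 1.89e-05). In WTwithQ50 mice 0 of the 9 were called, although 18.4% of all genes were. Scn4b came nearest there, at 0.38 ± 0.142 (adjusted p = 0.0502), and DESeq2's Wald test called 1 of the 9. At an unadjusted p of 0.05, 1 of the 9 passed. The difference between the wild-type groups changed with age for all 9 genes, tested as an interaction, with 2.88% of all genes called in the same direction. It was -2.11 ± 0.402 (adjusted p = 0.000615) for Rgs9, -1.31 ± 0.273 (adjusted p = 0.00165) for Pde10a, -1.17 ± 0.231 (adjusted p = 0.000948) for Ppp1r1b and -0.50 ± 0.110 (adjusted p = 0.00263) for Gnal, the smallest of the 9.

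At 10 months 7 of the 9 genes were higher in Q20 than in WTwithQ20, where 2.56% of all genes were called higher. The WTwithQ20 libraries are the same that were low against WTwithQ50, so the comparisons share them. Rgs9 lay at 14.4 to 113 CPM (median 43.1) in Q20 libraries, against 10.6 to 22.9 CPM (median 13.7) in WTwithQ20 libraries. Of the 8 Q20 libraries, 6 exceeded every WTwithQ20 library, and the difference was 1.74 ± 0.333 (adjusted p = 0.00856). Pde10a lay at 81.7 to 359 CPM (median 179) in Q20 libraries, against 50.9 to 109 CPM (median 83.7) in WTwithQ20 libraries, and it differed by 1.11 ± 0.208 (adjusted p = 0.00856). Ppp1r1b lay at 58.4 to 217 CPM (median 106) in Q20 libraries, against 57.1 to 84.5 CPM (median 64.9) in WTwithQ20 libraries, and it differed by 0.75 ± 0.193 (adjusted p = 0.0259). For each of the 9 genes the Q20 range reached into the wild-type range. Gng7 differed by 0.79 ± 0.175 (adjusted p = 0.0149), Adcy5 by 0.58 ± 0.125 (adjusted p = 0.0121), Pde1b by 0.48 ± 0.121 (adjusted p = 0.0238) and Gnal by 0.41 ± 0.0879 (adjusted p = 0.0110). Rasd2, at 0.40 ± 0.122 (adjusted p = 0.0501), and Scn4b, at 0.47 ± 0.169 (adjusted p = 0.0908), were not called. Without Q20 male replicate 4, the library with Abhd1 in the wild-type range, 3 genes were called: Pde10a (adjusted p = 0.0390), Rgs9 (adjusted p = 0.0394) and Gnal (adjusted p = 0.0455). Rgs9 then differed by 1.45 ± 0.315. Set against both wild-type groups, 1 of the 9 was called higher in Q20, as were 0.477% of all genes.

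The remaining genes showed the same layout of levels at 10 months. Gng7 lay at 93.3 to 265 CPM (median 151) in Q20 and 83.5 to 106 CPM (median 89.0) in WTwithQ20 libraries, beside 96.96 to 206 CPM (median 136) in WTwithQ50 libraries. Adcy5 lay at 135 to 309 CPM (median 196) in Q20 and 126 to 153 CPM (median 136) in WTwithQ20 libraries, beside 125 to 259.7 CPM (median 180.2) in WTwithQ50 libraries. For both the WTwithQ20 libraries formed a narrow low range, with the Q20 and WTwithQ50 libraries spread from it upward. Gnal lay at 197 to 345 CPM (median 248) in Q20 and 155 to 209 CPM (median 192) in WTwithQ20 libraries, beside 219 to 268 CPM (median 233) in WTwithQ50 libraries. Gnal kept WTwithQ20 below all WTwithQ50 libraries. Pde1b lay at 126 to 291 CPM (median 174) in Q20 and 126 to 143 CPM (median 128) in WTwithQ20 libraries, beside 129 to 245 CPM (median 177) in WTwithQ50 libraries. Rasd2 lay at 62.5 to 142 CPM (median 73.3) in Q20 and 56.1 to 70.8 CPM (median 60.9) in WTwithQ20 libraries, beside 61.7 to 114 CPM (median 76.7) in WTwithQ50 libraries. Scn4b lay at 101 to 302 CPM (median 125) in Q20 and 80.1 to 133 CPM (median 104) in WTwithQ20 libraries, beside 125 to 254 CPM (median 144) in WTwithQ50 libraries. In Rasd2 and Scn4b the highest Q20 value stood far above the other 7, and it came from male replicate 4. Q92 and Q140 libraries reached down to the WTwithQ20 level. Gng7 lay at 82.9 to 156 CPM (median 109) in Q92 and 92.1 to 201 CPM (median 119) in Q140 libraries, and Scn4b at 58.4 to 131 CPM (median 101) and 84.5 to 113 CPM (median 101). For Ppp1r1b the ranges were 53.4 to 101 CPM (median 71.3) in Q92 and 49.7 to 121 CPM (median 77.4) in Q140 libraries, and for Pde10a 76.1 to 137 CPM (median 89.0) and 77.7 to 135 CPM (median 107). Each of these overlapped both wild-type groups, except that every Q140 library was below every WTwithQ50 library for Scn4b. In Q50 libraries Ppp1r1b lay at 93.2 to 151 CPM (median 117), Pde10a at 114 to 198 CPM (median 161) and Gng7 at 121 to 159 CPM (median 147), inside the WTwithQ50 ranges.

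The Q20 libraries at 10 months were split by sex. In males Rgs9 lay at 47.3 to 113 CPM, against 14.4 to 38.9 CPM in females. Every male was above every female for 8 of the 9 genes, which held for 4.62% of all genes. The mean log2 CPM of 5 markers of forebrain cholinergic neurons (cells of the basal forebrain and striatum) split in the same way, at 1.79 to 2.15 in Q20 males, against -2.23 to 0.66 in Q20 females. Tested by sex, 8 of the 9 genes were called higher in Q20 males, where 7.13% of all genes were. The males include replicate 4, the highest library for all 9 genes and the one with Abhd1 in the wild-type range. Without it, a choice made after the values were seen, 8 were called in males, against 4.1% of all genes. In Q20 females edgeR called 0 of the 9, where 0.00577% of all genes were called. At an unadjusted p of 0.05 0 of the 9 passed, and Rgs9 differed by 0.93 ± 0.449 (adjusted p = 0.9996). In Q140 the order was the reverse: every one of the 3 males lay below every one of the 4 females for 7 of the 9 genes, which held for 6.11% of all genes. Rgs9 averaged 14.5 ± 2.04 CPM in Q140 males and 29.8 ± 7.97 CPM in Q140 females. The cholinergic mean lay at -2.55 to -1.36 in Q140 males, against 0.71 to 2.09 in Q140 females. Its part in these sex differences was not tested. In Q92 Rgs9 averaged 15.1 ± 2.31 CPM in males and 29.6 ± 13.5 CPM in females, and 1 of the 9 genes had every male below every female, as had 1.76% of all genes. In WTwithQ20 males and females Rgs9 averaged 15.5 ± 5.21 CPM and 13.6 ± 1.204 CPM. Whether the sex difference itself differs between lines was not tested. The sex term over all lines called 0 of the 9 genes at 6 months and 0 at 10 months, where edgeR called 2.37% and 3.49% of all genes. At an unadjusted p of 0.05, 0 of the 9 passed at 6 months and 0 at 10 months.

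At 10 months no difference of Q92 or Q140 from the mean of both wild-type groups was detected. edgeR called 0 of the 9 genes in Q92 and 0 in Q140, where 0.853% and 1.2% of all genes were called. Rgs9 lay at 11.7 to 42.6 CPM (median 16.7) in Q92 and 12.4 to 41.2 CPM (median 22.6) in Q140 libraries, against 10.6 to 76.7 CPM (median 19.0) in the 16 wild types. The groups overlapped over most of their range, and Rgs9 differed by -0.13 ± 0.287 (adjusted p = 0.884) in Q92 and -0.069 ± 0.301 (adjusted p = 0.952) in Q140. These values average differences of opposite sign. Against WTwithQ20 alone Rgs9 differed by 0.62 ± 0.340 (adjusted p = 0.253) in Q92 and 0.68 ± 0.351 (adjusted p = 0.246) in Q140. Against WTwithQ50 alone it differed by -0.88 ± 0.322 (adjusted p = 0.516) in Q92 and -0.82 ± 0.335 (adjusted p = 0.492) in Q140. In both lines every gene but Scn4b was above WTwithQ20 and below WTwithQ50 in the fit, and Scn4b was below both. Of the 9 genes, 0 were called against WTwithQ20, where 8.68% of all genes were in Q92 and 6.09% in Q140. Against WTwithQ50 0 were called as well, where 0.0449% and 0.477% of all genes were. At an unadjusted p of 0.05, 0 of the 9 passed in Q92 and 2 in Q140 against WTwithQ20, and 7 and 5 against WTwithQ50. The share of all genes that passed in this way is not reported here. From the mean of both groups Ppp1r1b differed by -0.21 ± 0.169 (adjusted p = 0.594) in Q92 and -0.16 ± 0.177 (adjusted p = 0.762) in Q140. In those fits Scn4b alone had an unadjusted p below 0.05, in Q92 with -0.35 ± 0.148 (adjusted p = 0.266) and in Q140 with -0.35 ± 0.155 (adjusted p = 0.329). In Q50, where no gene of the 9 had been called at 6 months against WTwithQ50, 0 were called at 10 months and 0.0561% of all genes were. The Q50 differences of the 9 genes lay between 0.0035 and 0.14. The trend over the 4 lines, where repeat length and cohort again cannot be told apart, called 4 genes lower with longer repeats. Of all genes, 0.982% were. Per 100 repeats, Pde10a changed by -0.73 ± 0.171 (adjusted p = 0.0151), Scn4b by -0.56 ± 0.139 (adjusted p = 0.0239), Rgs9 by -1.004 ± 0.271 (adjusted p = 0.0437) and Ppp1r1b by -0.58 ± 0.160 (adjusted p = 0.0486). Leaving out 1 library left 1 to 6 genes called, and without the Q20 library in the wild-type Abhd1 range 1 was called.

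The change of these differences with age was tested directly. In Q92, 6 genes had a less negative difference from wild type at 10 than at 6 months (Ppp1r1b, Pde1b, Rgs9, Gng7, Adcy5 and Gnal), where 5.88% of all genes were called in that direction. Gng7 had an interaction of 0.83 ± 0.183 (adjusted p = 0.00136) and Rgs9 of 1.45 ± 0.360 (adjusted p = 0.00463). In Q140, 5 genes were called (Pde10a, Rgs9, Gng7, Adcy5 and Gnal), against 1.22% of all genes, with 1.39 ± 0.367 (adjusted p = 0.0299) for Rgs9 and 0.81 ± 0.187 (adjusted p = 0.0143) for Gng7. In Q20, 4 genes were called (Pde10a, Rgs9, Gng7 and Gnal), against 0.561% of all genes, with 1.69 ± 0.399 (adjusted p = 0.0278) for Rgs9. Without the 2 libraries in the wild-type Abhd1 range, 0 were called in Q20. In Q50, 0 of the 9 genes and 0% of all genes were called, and 0 of the 9 had an unadjusted p below 0.05; DESeq2's Wald test called 0. With both wild-type groups as the reference, 9 were called in Q50, as were 0.814% of all genes, and Rgs9 had an interaction of 1.55 ± 0.345 (adjusted p = 0.0164) there. The levels beside these tests were lower in WTwithQ20 and higher in Q92 and Q140 at the later age. The mean over the 9 genes, in log2 CPM, was 6.33 ± 0.12 at 6 months and 6.51 ± 0.27 at 10 months in Q92. In WTwithQ20 it was 7.21 ± 0.21 at 6 months and 6.35 ± 0.12 at 10 months. The interactions of Q20, Q92 and Q140 all rest on WTwithQ20 libraries. With WTwithQ50 alone as the wild type, 0 of the 9 were called in Q92 and 0 in Q140, where 1.24% and 0.258% of all genes were.

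Receptors and peptides of striatal projection neurons, listed as the other end of the pathway, changed in the same comparisons, with medians further from 0. Of 9 listed genes, 8 were lower in Q92 and 8 in Q140 at 6 months, with medians of -1.21 and -1.28. Of all genes, 4.53% and 2.13% were called lower there. At 10 months 8 were higher in Q20 (median 1.46) and 8 were lower in WTwithQ20 than in WTwithQ50 (median -1.31). Of all genes, 2.56% were called higher in Q20 and 3.63% lower in WTwithQ20. The D1 dopamine receptor Drd1 averaged 12.4 ± 1.40 CPM in Q92 and 27.5 ± 7.11 CPM in wild types at 6 months (-1.12 ± 0.125, adjusted p = 8.54e-08). The adenosine receptor Adora2a averaged 3.20 ± 1.02 CPM in Q92 and 15.3 ± 6.21 CPM in wild types (-2.19 ± 0.288, adjusted p = 1.66e-06). The proenkephalin gene Penk averaged 35.7 ± 5.11 CPM in Q92 and 117 ± 31.4 CPM in wild types (-1.69 ± 0.174, adjusted p = 1.78e-08), and in Q140 it averaged 41.4 ± 11.3 CPM (-1.48 ± 0.172, adjusted p = 7.64e-07). In Q20 at 10 months Adora2a averaged 14.1 ± 9.92 CPM, against 2.71 ± 1.03 CPM in WTwithQ20 (2.37 ± 0.464, adjusted p = 0.00926). The gene whose log2 CPM followed the mean of the 9 genes most closely over the 95 libraries was Drd1, with a Pearson r of 0.969. Among the next in that order of 14659 genes, Syndig1l had 0.954, Drd2 0.953 and Adora2a 0.951. After each group's mean was removed the r of Drd1 was 0.931, and that of these 3 was 0.890 to 0.913. The libraries share group and depth, and these r are descriptions. Among the 9 genes, each one's r to the mean of the other 8 was 0.835 (Scn4b) to 0.975 (Pde1b).

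The 58 other genes of the pathway, mostly members of the same families, had medians near 0. A larger share of them than of all genes was nevertheless called lower in Q92 and Q140 at 6 months. Some of them, such as Pde7b and Arpp21, are also known to be enriched in striatum, and both were called lower in Q92 and Q140 and higher in Q20 at 10 months. In Q92 at 6 months 12 were lower and 5 higher (median -0.0015), and in Q140 7 were lower and 0 higher (median -0.0090). Of all genes, 4.53% were called lower in Q92 and 2.13% in Q140. In Q20 at 10 months 5 were higher and 3 lower, and between the wild-type groups 1 was higher and 2 lower in WTwithQ20. There, 2.56% of all genes were called higher in Q20 and 3.63% lower in WTwithQ20. Among phosphodiesterases, 3 of 8 were lower in Q92, with Pde1c the widest at 8.36 ± 0.898 CPM, against 12.1 ± 2.21 CPM in wild types (-0.53 ± 0.105, adjusted p = 0.000497). Pde7b was the 1 phosphodiesterase lower in Q140, at 34.0 ± 2.09 CPM, against 45.5 ± 6.32 CPM in wild types (-0.41 ± 0.0697, adjusted p = 0.000128). Of 8 genes for phosphatase 1 and its regulators, the inhibitor Ppp1r2 averaged 127 ± 9.81 CPM in Q92 and 151 ± 9.21 CPM in wild types (-0.24 ± 0.0381, adjusted p = 1.43e-05). Arpp21, a cAMP-regulated phosphoprotein, averaged 393 ± 11.1 CPM in Q92 and 437 ± 18.05 CPM in wild types (-0.15 ± 0.0276, adjusted p = 0.000150). In the protein kinase A list of 7, the regulatory subunit Prkar2b was the 1 gene lower in Q140, at 62.3 ± 3.53 CPM, against 70.6 ± 4.51 CPM in wild types (-0.18 ± 0.0357, adjusted p = 0.00139). Of the 9 RGS proteins and anchors, 3 were lower and Rgs4 was higher in Q92, at 416 ± 17.6 CPM, against 369.6 ± 33.2 CPM in wild types (0.17 ± 0.0436, adjusted p = 0.00750). Of 11 other G protein subunits, Gnb5 alone was called, lower in both lines. Of 6 other adenylyl cyclases, 1 was called higher in Q92 and 0 in Q140.

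**Figure D3:**
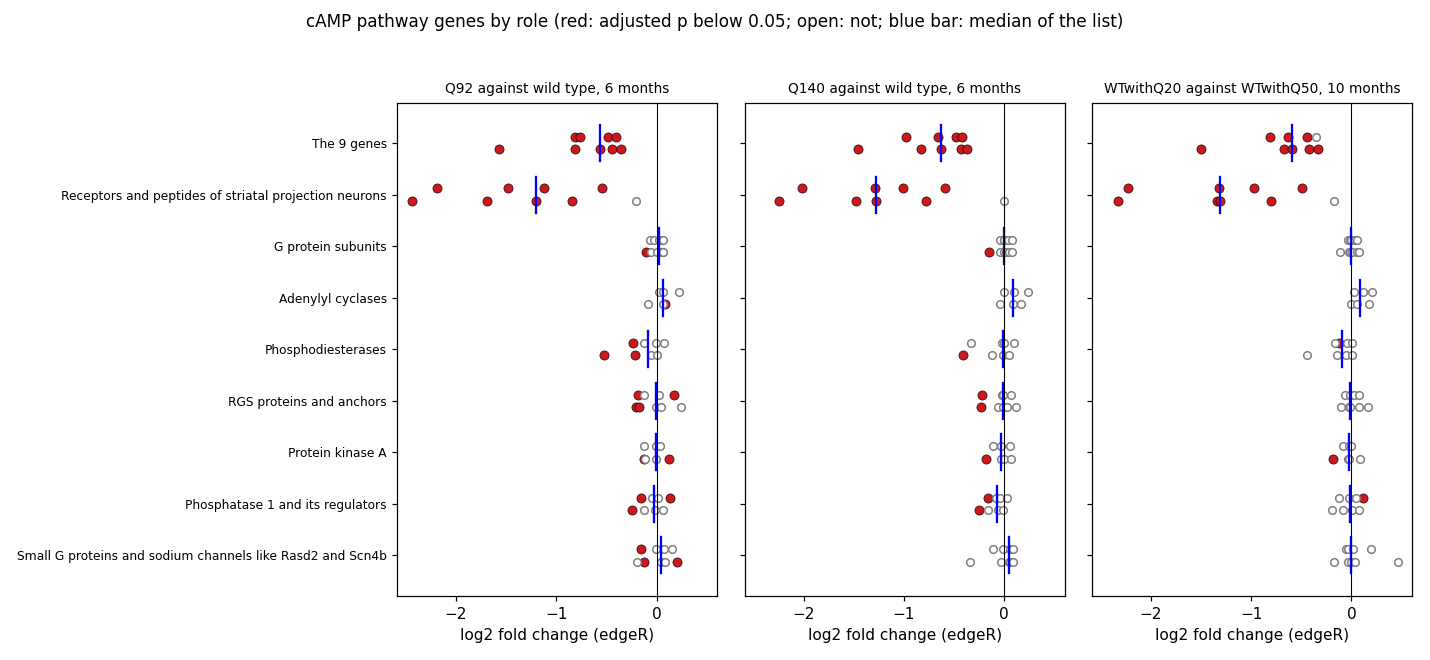
Log2 fold change (edgeR) of every listed gene by role, for Q92 and Q140 against wild type at 6 months and WTwithQ20 against WTwithQ50 at 10 months; red points passed an adjusted p of 0.05 and blue bars are list medians. The 9 genes and the receptors and peptides lie left of 0 in all 3 panels, apart from 1 receptor or peptide gene near 0 in each, and the other 7 lists have medians near 0.

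Markers of another forebrain cell type moved with the 9 genes. Of the 5 markers of forebrain cholinergic neurons, 5 were lower in Q92 and 5 in Q140 at 6 months. Of all genes, 4.53% and 2.13% were called lower there. At 10 months 5 were lower in WTwithQ20 than in WTwithQ50, where 3.63% of all genes were called lower. In Q20 at 10 months 5 were higher, where 2.56% of all genes were. The mean of these 5 markers is given next. Their mean log2 CPM at 6 months was -2.09 ± 0.44 in Q92 (range -2.72 to -1.23) and -1.70 ± 0.71 in Q140 (range -2.53 to -0.78). It was 1.73 ± 0.32 in WTwithQ20 (range 1.12 to 2.17) and 0.84 ± 0.51 in WTwithQ50 (range 0.21 to 1.56). At 10 months it was 0.50 ± 1.78 in Q20 (range -2.23 to 2.15), against -2.28 ± 0.33 in WTwithQ20 (range -2.80 to -1.88). WTwithQ50 libraries had 0.65 ± 1.44 (range -1.28 to 2.12). Lhx8 was at 0 counts in 14 of the 95 libraries. The other 4 cholinergic markers had counts in every library, but the lowest were 1 for Slc10a4 and Gbx1, 6 for Chat and 21 for Slc5a7. In Q92 at 6 months Slc10a4 had 1 to 12 counts, Gbx1 1 to 7 and Lhx8 0 to 6. The low group means of these markers therefore rest on few counts. Of 4 markers of olfactory bulb projection neurons, 4 were lower in Q92 (mean -0.75 ± 0.26 log2 CPM, against 1.03 ± 0.71 in WTwithQ20 and 1.16 ± 1.45 in WTwithQ50) and 0 were called in Q140; Eomes was at 0 in 7 libraries. Of 6 choroid plexus markers, 3 were higher in Q92 and 4 in Q140 at 6 months, where their mean log2 CPM was 2.51 ± 2.18 and 2.94 ± 2.18, against 1.99 ± 1.66 in WTwithQ20 and 0.61 ± 0.46 in WTwithQ50. Of 8 cortical excitatory markers, 4 were higher in Q92 and 1 in Q140, with means of 6.55 ± 0.04 and 6.48 ± 0.09 log2 CPM. In WTwithQ20 and WTwithQ50 their means were 6.30 ± 0.07 and 6.39 ± 0.12 log2 CPM. The share of all genes called higher at 6 months is not reported here, so the counts of higher markers cannot be set against it. The part of these cell types in the result was not tested.

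**Figure D4:**
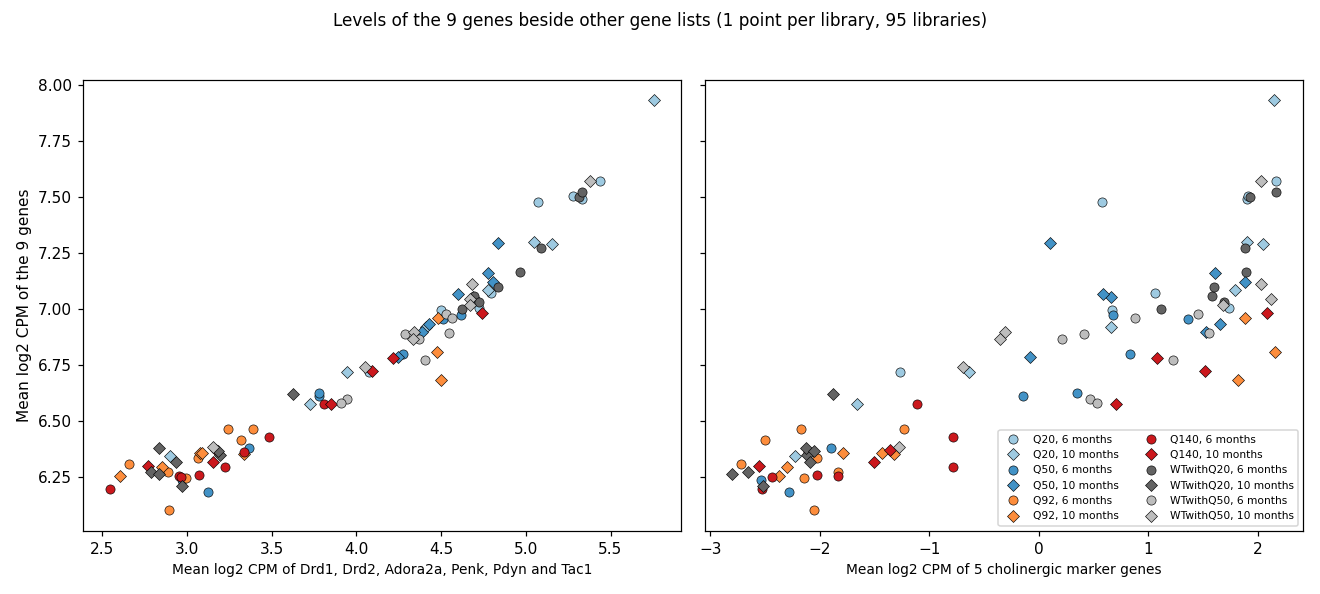
Mean log2 CPM of the 9 genes in each of the 95 libraries against the mean of 6 striatal receptor and peptide genes (left) and of 5 cholinergic marker genes (right), coloured by line, with circles for 6 and diamonds for 10 months. On the left the points lie along 1 narrow band, with Q92 and Q140 at 6 months and WTwithQ20 at 10 months at its low end; on the right they spread more widely.

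The same differences were fitted with such scores as a covariate. With the mean of the 5 cholinergic markers in the fit, 0 of the 9 genes were called in Q92 and 0 in Q140 at 6 months, 0 in Q20 at 10 months and 0 between the wild-type groups at 10 months. Of all genes, 0.0621%, 0.102%, 0.0168% and 0.893% were called in these fits, in the same order. Rgs9 then differed by -0.027 ± 0.202 (adjusted p = 0.979) in Q92 and -0.089 ± 0.188 (adjusted p = 0.837) in Q140. With the mean of Drd1, Drd2, Adora2a, Penk, Pdyn and Tac1 in the fit, the counts were 0 as well, where 0.0395%, 0.0903%, 0.0168% and 1.2% of all genes were called. Rgs9 then differed by 0.22 ± 0.121 (adjusted p = 0.939) in Q92 and 0.20 ± 0.116 (adjusted p = 0.471) in Q140. Drd1, Drd2, Adora2a, Penk and Pdyn followed the mean of the 9 genes closely in the same 95 libraries, with r of 0.932 to 0.969. A fit with them takes out much of the variation of the 9 genes themselves, so no conclusion is drawn from the lost calls. Both covariates move with the groups, so what they share with line, age and housing cannot be told apart. In the low groups the cholinergic mean also rests on few counts of each marker.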

How the data were processed

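Cortical mRNA of 95 mouse libraries was analysed from 2 deposited tables, an estimated count table and an FPKM table, over 39179 genes (37607 with a symbol). CASAVA 1.8.2 is named in the submitters' processing notes. Which aligner, counter, annotation and build were used is not given in the sources used here. The deposited estimated counts are whole in 67.0% of nonzero values and were rounded. The deposited FPKM values, scaled by the authors for library size and gene length, were used for levels and for an alternative test.

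Counts were filtered with filterByExpr, scaled by TMM and tested with edgeR 4.0.16 (R 4.3.3) by the quasi-likelihood F-test with robust dispersion, in 1 fit for each age (48 and 47 libraries, 17716 and 17813 genes) and 1 fit of both ages (18187 genes), with terms for line and housing group and for sex. P-values were adjusted by Benjamini-Hochberg over all genes tested, at 0.05. CPM uses TMM-scaled library sizes, and log2 CPM a prior count of 1. SE is the log2 fold change divided by the square root of F. The contrasts were each line against its wild types, the trend over repeats, WTwithQ20 against WTwithQ50, sex, age in wild types, and the interactions with age. Alternatives used DESeq2 1.42.0, limma 3.58.1 (voom, and log2 of FPKM plus 0.1 or 1), other filters, covariates, references and subsets of libraries. The edgeR quasi-likelihood test alone was tried on simulated data, for a knock-in line against wild type and for the wild-type age interaction. The trend over repeats and the alternatives were not tried on simulated data.

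The replicates of a group were compared as 141 pairs, and all differed by more than counting noise (chi-square per degree of freedom of at least 3.84). Groups came from the labels. The 9 genes, the other lists and the markers were chosen with earlier results of these data known. Of the other listed genes, those named are up to 4 called genes with the smallest p in a list and comparison; Pde2a and Slc18a3 are not analysed here, and some items are not reported here. Antisense or overlapping genes could share reads, since strand use is not stated.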

Additional observations from a re-analysis of the deposited data

Results flagged for a closer look

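Single libraries stood apart from the others of their group in 10 of 108 tests, by the gap to the nearest library as a share of the group's range; chance gives about 1 in 20. In Q92 at 6 months male replicate 3, a library with over 13% mitochondrial counts, was lowest for Adcy5 (103 CPM), Gnal (139.6 CPM) and Scn4b (79.5 CPM). In Q20 at 10 months male replicate 4, the library with Abhd1 in the wild-type range, was highest for Rasd2 (142 CPM) and Scn4b (302 CPM). In WTwithQ50 at 10 months female replicate 4 was highest for Rasd2 (114 CPM) and Scn4b (254 CPM). In Q50 at 10 months male replicate 1 was highest for Rasd2 (110.2 CPM). In WTwithQ20 at 10 months male replicate 2 was lowest for Gnal (155 CPM) and male replicate 1 was highest for Rgs9 (22.9 CPM).

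Differences between groups changed between 6 and 10 months by edgeR's interaction test. The log2 interaction of WTwithQ20 against WTwithQ50 was -0.50 for Gnal, -0.98 for Gng7, -0.73 for Adcy5, -2.11 for Rgs9, -1.31 for Pde10a, -0.74 for Pde1b, -1.17 for Ppp1r1b, -0.68 for Rasd2 and -1.07 for Scn4b. The interaction of Q92 against wild type was 0.41 for Gnal, 0.83 for Gng7, 0.49 for Adcy5, 1.45 for Rgs9, 0.39 for Pde1b and 0.60 for Ppp1r1b. For Q140 it was 0.41 for Gnal, 0.81 for Gng7, 0.50 for Adcy5, 1.39 for Rgs9 and 0.92 for Pde10a. For Q20 it was 0.47 for Gnal, 0.79 for Gng7, 1.69 for Rgs9 and 1.07 for Pde10a. All of them use the WTwithQ20 libraries, which were high at 6 months and low at 10 months.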

How the results depend on the processing

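Over 21 comparisons the 9 genes gave 189 values, 79 of them called. Of 14958 values under alternatives, 14278 kept direction and side of the threshold, 470 lost the call, 154 gained one, 56 reversed with a call on either side and 304 changed sign with no call. The counts of the 9 genes called in Q92, Q140 and the trend at 6 months, in WTwithQ20 with age and in the wild-type age interaction were 9 whichever library was left out. Counts that differed by over 1.5 times are given next; the cause was not tested. With both wild-type groups as reference 0 were called for the Q20 age interaction, and 1 was called for Q20 at 10 months and Q50 at 6 months; 9 were called for the Q50 age interaction. With the cholinergic covariate 0 were called for the Q140 age interaction, Q140 at 6 months, the Q20 age interaction, Q20 at 10 months, the Q92 age interaction, Q92 at 6 months, the wild-type age interaction, the wild-type groups at 10 months and age in WTwithQ20, and 1 was called for the trend at 6 months and sex at 10 months; 2 were called for age in WTwithQ50. With DESeq2 size factors 1 was called for the wild-type groups at 6 months and age in WTwithQ50. With DESeq2's Wald test 1 was called for age in WTwithQ50, and 2 were called for the wild-type groups at 6 months. In females alone 0 were called for the trend at 10 months, the Q140 age interaction, Q140 at 6 months, the Q20 age interaction and Q20 at 10 months, and 1 was called for the wild-type age interaction, the wild-type groups at 10 months and age in WTwithQ50; 3 were called for the Q92 age interaction; 4 were called for the trend at 6 months. In a fit of the knock-in lines alone 1 was called for the trend at 10 months. With the L code of the library names as a factor 0 were called for the Q140 age interaction and the Q20 age interaction, and 1 was called for the trend at 10 months; 2 were called for Q20 at 10 months and the wild-type groups at 10 months. With limma on log2(FPKM + 0.1) 0 were called for the Q20 age interaction. With limma on log2(FPKM + 1) 0 were called for the Q20 age interaction. With limma voom 1 was called for age in WTwithQ50, and 2 were called for the wild-type groups at 6 months; 8 were called for the trend at 10 months. In males alone 0 were called for the Q140 age interaction and the Q92 age interaction, and 8 were called for the Q20 age interaction; 9 were called for the trend at 10 months. With a filter at a mean of 5 CPM 1 was called for age in WTwithQ50, and 2 were called for the Q20 age interaction. With no filter 2 were called for the trend at 10 months, the Q140 age interaction and the Q20 age interaction. With the replicate number as a block 1 was called for the wild-type groups at 6 months, and 2 were called for the trend at 10 months. With the striatal receptor and peptide covariate 0 were called for the trend at 10 months, the trend at 6 months, the Q140 age interaction, Q140 at 6 months, the Q20 age interaction, Q20 at 10 months, the Q92 age interaction, Q92 at 6 months, the wild-type age interaction, the wild-type groups at 10 months and age in WTwithQ20, and 2 were called for age in WTwithQ50. Without the 2 libraries with Abhd1 in the wild-type range (chosen after seeing the data) 0 were called for the Q20 age interaction, and 1 was called for the trend at 10 months and age in WTwithQ50; 3 were called for Q20 at 10 months. Without libraries over 13% mitochondrial 1 was called for the wild-type groups at 6 months and age in WTwithQ50. Against WTwithQ20 alone 9 were called for the Q140 age interaction. Against WTwithQ50 alone 0 were called for the Q140 age interaction and the Q92 age interaction.

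Replicate numbers did not pair the samples: same-numbered libraries of an age had a mean correlation of their deviations of 0.0018 at 6 months (lowest -0.489) and -0.00077 at 10 months (lowest -0.388), and the block changed no other count by over 1.5 times. Values that reversed had the following size. With the cholinergic covariate the log2 values were, for the Q140 age interaction Adcy5 -0.085 and Rgs9 -0.24, for the Q92 age interaction Adcy5 -0.093, Pde1b -0.12, Ppp1r1b -0.17 and Rgs9 -0.24, for the wild-type groups at 10 months Adcy5 0.026 and Gng7 0.0046. Likewise the log2 values were, for age in WTwithQ20 Gnal 0.041, for Q92 at 6 months Pde10a 0.13. In females alone the log2 values were, for the trend at 10 months Ppp1r1b 0.0066 and Rgs9 0.0086. With the striatal receptor and peptide covariate the log2 values were, for the trend at 6 months Adcy5 0.068, Gng7 0.10, Pde10a 0.13, Pde1b 0.051 and Rgs9 0.19, for the Q140 age interaction Adcy5 -0.069 and Rgs9 -0.13, for Q140 at 6 months Adcy5 0.12, Gng7 0.14, Pde10a 0.12, Pde1b 0.090, Rasd2 0.052 and Rgs9 0.20. Likewise the log2 values were, for the Q92 age interaction Adcy5 -0.060, Pde1b -0.10, Ppp1r1b -0.17 and Rgs9 -0.078, for Q92 at 6 months Adcy5 0.083, Gng7 0.048, Pde10a 0.42, Pde1b 0.073, Ppp1r1b 0.053, Rasd2 0.15, Rgs9 0.22 and Scn4b 0.17, for the wild-type age interaction Adcy5 0.060, Gng7 0.081 and Rgs9 0.040. Likewise the log2 values were, for the wild-type groups at 10 months Adcy5 0.10, Gng7 0.086, Pde1b 0.049 and Ppp1r1b 0.12, for age in WTwithQ20 Adcy5 0.044, Gnal 0.10, Gng7 0.11, Pde10a 0.018, Pde1b 0.061, Rasd2 0.10 and Rgs9 0.043, for the Q20 age interaction Gng7 -0.022 and Rgs9 -0.0058. Likewise the log2 values were, for Q20 at 10 months Gng7 -0.0071, Pde1b -0.048 and Ppp1r1b -0.094.

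Leaving out 1 library at a time, with the replicate after the sex, gave these numbers of the 9 genes called. The trend at 10 months kept 1 to 6 calls: 1 without Q140 male 1 or 2 and Q20 male 4, 2 without Q140 female 1 or 2 or 3, Q140 male 3, Q20 female 2, Q20 male 1 or 3, Q50 female 2, Q50 male 1 or 2 or 4, Q92 male 1 or 2 or 3 or 4 and WTwithQ50 male 2. The Q140 age interaction kept 0 to 7 calls: 0 without Q140 female 4 at 10 months, 2 without Q140 female 3 at 10 months and Q140 male 2 or 3 or 4 at 6 months, 3 without Q140 female 2 at 10 months and Q140 male 1 at 6 months. The Q20 age interaction kept 0 to 7 calls: 0 without Q20 male 1 or 2 or 4 at 10 months, Q20 female 3 at 6 months, Q20 male 4 at 6 months and WTwithQ20 male 2 at 10 months, 1 without Q20 male 3 at 10 months and WTwithQ20 male 3 at 6 months, 2 without WTwithQ20 male 3 or 4 at 10 months, WTwithQ20 female 1 or 3 at 6 months and WTwithQ20 male 1 at 6 months, 7 without Q20 female 3 at 10 months. The Q92 age interaction kept 4 to 6 calls. Q20 at 10 months kept 3 to 9 calls: 3 without Q20 male 4. The wild-type groups at 10 months kept 3 to 9 calls: 3 without WTwithQ50 female 4, 5 without WTwithQ50 male 1. The wild-type groups at 6 months kept 0 to 1 calls: 1 without Q140 female 4, Q20 female 1 or 3 or 4, Q20 male 1 or 3, Q50 female 4, Q92 male 3, WTwithQ20 female 3 and WTwithQ20 male 4. Age in WTwithQ50 kept 0 to 1 calls: 1 without Q140 male 1 or 2 or 3 at 10 months, Q20 female 1 or 4 at 10 months, Q20 male 4 at 10 months, Q20 female 1 or 3 or 4 at 6 months, Q20 male 3 at 6 months, Q50 female 2 at 10 months, Q50 male 1 at 10 months, Q50 female 4 at 6 months, Q92 female 1 or 3 at 10 months, Q92 male 3 at 10 months, Q92 male 3 at 6 months, WTwithQ20 female 3 at 6 months, WTwithQ20 male 1 or 3 at 6 months, WTwithQ50 female 3 at 10 months and WTwithQ50 male 1 or 2 or 4 at 10 months. Counting error is small beside the spread between libraries, since each gene had at least 353 counts in every library.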
